A study of Mus musculus with 6 samples.

Results

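The genes described here carry the canonical Wnt signal from the cell surface to the nucleus: the co-receptors Lrp5 and Lrp6, the scaffolds Axin1, Axin2 and Apc and the kinase Gsk3b of the β-catenin destruction complex, β-catenin itself (Ctnnb1) and the DNA-binding factors Tcf7l2, Tcf7 and Lef1. They were chosen by name. Every probe set of the array that its annotation assigns to 1 of these 10 genes and to no other gene was taken, which gave 26 of 45037 probe sets, for 9 of the 10 genes. Tcf7 had no such probe set, so its RNA was not measured here, and it enters only in the count of promoter windows below. Lrp5 had 1 probe set, Lef1, Axin1, Axin2 and Lrp6 had 2 each, Ctnnb1 had 3, Tcf7l2 and Apc had 4 each, and Gsk3b had 6.

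Without a Wnt ligand, the destruction complex holds β-catenin while casein kinase 1 and GSK3 phosphorylate it, and the marked protein is degraded. A ligand that bridges a Frizzled receptor and LRP5 or LRP6 draws Axin to the membrane, β-catenin accumulates, enters the nucleus and displaces Groucho (TLE) co-repressors from TCF and LEF factors. In the liver this pathway is known for hepatoblast growth and for the later zonation of hepatocytes, and in blood for the development of lymphoid progenitors. Because β-catenin is controlled largely through the stability of the protein, RNA levels of these genes do not measure the activity of the pathway.

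Fetal liver (FL) at E14.5 was compared between 3 Pogz+/+ (labelled Pogz-WT) and 3 Pogz-/- (labelled Pogz-KO) embryos of a congenic C57BL/6 background, with an Affymetrix mouse expression array hybridized for each liver. The Pogz-/- embryos descend from mice in which exons coding for the CENPB and DDE domains and part of the zinc finger region were removed by a β-actin-driven Cre, so the deletion was present in all cells of the embryo and not only in blood cells, and no sex is given in the labels. Livers were minced to a suspension of single cells and strained, so the RNA came from a mixture in which erythroid cells predominate. In such bulk RNA, fewer cells of a type and less RNA per cell cannot be told apart.

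Signals are log2 of the deposited linear intensities, in which the median of all tested probe sets, averaged over 6 arrays, was 4.91. The Pogz+/+ arrays had median intensities of 36.0 to 54.3 and the Pogz-/- arrays of 29.7 to 31.6. Pogz+/+ replicate 1 stood apart. The 3′ to 5′ signal ratio of its β-actin control was 52.3, where those of Pogz+/+ replicates 2 and 3 were 5.50 and 6.63 and the Pogz-/- ratios lay between 3.72 and 4.09. Across probe sets its correlations with the remaining arrays were 0.794 to 0.810, below all other pairs (0.884 to 0.906). Pogz itself was not lower across its 4 probe sets in the livers labelled Pogz-KO. The brightest, 1455046_a_at, measured 8.95 to 9.17 in wild-type livers and 9.16 to 9.33 in knockouts, and 1434650_at was the sole one with a negative log2 fold change (-0.59 over 6 arrays). The dimmer 1454827_at and 1457748_at had all Pogz-/- arrays above all Pogz+/+ arrays, by means of 2.17 and 1.47 on the log2 scale (adjusted p = 0.382 and 0.440, limma). The paper places the deleted region at the 3′ end of the gene, with part of the 3′ untranslated region. It is not known here whether these probes fall in that region, so the genotypes of these 6 livers are taken from the labels. For other embryos of the line the paper reports genotyping by PCR and a western blot of POGZ. Pogz+/+ and Pogz-/- stand for the livers so labelled throughout. Of marker genes, those of erythroid cells averaged 11.69 to 11.96 in Pogz+/+ and 11.11 to 11.35 in Pogz-/- over 7 genes, those of hepatoblasts 10.35 to 10.88 and 9.70 to 10.79 over 6 genes, and those of T and natural killer cells 4.43 to 5.12 and 3.75 to 4.53 over 9 genes, so the genes of erythroid cells and hepatoblasts were bright in this tissue. Of the erythroid genes, 4 of 7 fell in the fit without replicate 1 described next, where 2.07% of all genes fell, and the part of this shift in the results was not tested.

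A probe set is said to be called, to rise or to fall where limma gave an adjusted p under 0.05 over all 45037 probe sets, or, for the longer lists further on, over 18193 genes with the brightest probe set of each. Over all 6 arrays limma called 0 of the 26 member probe sets, against 0% of all probe sets, although 6 of the 26 and 5280 of all had an unadjusted p under 0.05. With limma's trend and robust settings over 6 arrays it again called 0 of the 26 (7 had an unadjusted p under 0.05), against 0.0377% of all. Without Pogz+/+ replicate 1 and with those settings, 1 member probe set rose, against 1.45% of all, and 2 fell, against 1.22%. With quantile normalization of these 5 arrays 2 rose and 2 fell (590 and 384 of all probe sets), and with median centring 2 rose and 1 fell (2767 and 145 of all, since it moves the median of all log2 fold changes from -0.13 to 0.14). Counted by the brightest probe set of each gene, 0 members were called without replicate 1 and with trend and robust. There Ctnnb1 had adjusted p = 0.0546 and Tcf7l2 0.0649 in limma, where 2.41% of all genes rose and 2.07% fell. Rises and falls named below come from this fit of 5 arrays, in which only 2 Pogz+/+ arrays remain, and no gene or probe set named below was called over all 6.

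**Figure D1:**
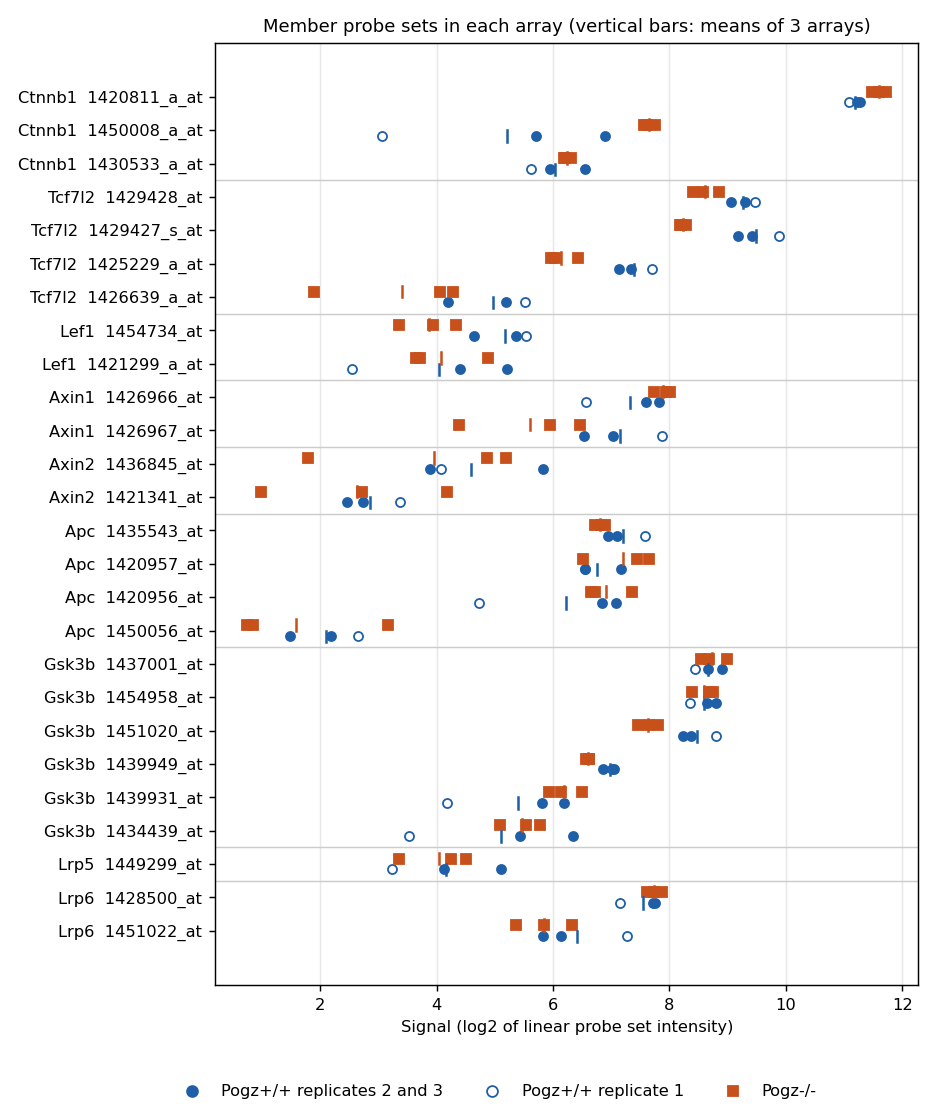
Log2 signal of the 26 member probe sets in each array, by gene and from the brightest probe set down. Circles are Pogz+/+ arrays (open for replicate 1), squares are Pogz-/- arrays and vertical bars are means of 3 arrays. Squares lie left of all circles in 3 of 4 Tcf7l2 probe sets and right of all circles in 2 of 3 Ctnnb1 probe sets.

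Tcf7l2, the TCF factor that binds β-catenin in the liver and intestinal epithelium, was lower in Pogz-/- FL. All 4 of its probe sets had a negative log2 fold change, from -1.56 to -0.66 over 6 arrays, and 2 of them fell in the fit of 5 arrays. The probe set 1429427_s_at measured 9.88, 9.41 and 9.18 in Pogz+/+ replicates 1 to 3 and 8.18, 8.29 and 8.20 in Pogz-/-. Every Pogz-/- array was below every Pogz+/+ array. The probe set fell by 1.07 on the log2 scale, or 2.10-fold (SE 0.13, adjusted p = 0.00304, limma with trend and robust, 5 arrays), and the log2 fold change was -1.27 over 6 arrays (SE 0.28, adjusted p = 0.364, limma). The probe set 1425229_a_at measured 7.69, 7.13 and 7.33 in Pogz+/+ and 6.04, 6.43 and 5.96 in Pogz-/-, again with no overlap. It fell by 1.09 (SE 0.24, adjusted p = 0.0382, same fit), a call that median centring of the arrays ended (-0.81, adjusted p = 0.0679).

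The other 2 Tcf7l2 probe sets had the same sign but were not called. The brightest, 1429428_at, measured 9.46, 9.05 and 9.30 in Pogz+/+ and 8.40, 8.85 and 8.58 in Pogz-/-. These groups did not overlap either, and the log2 fold change was -0.57 without replicate 1 (SE 0.16, adjusted p = 0.0931). This probe set and 1429427_s_at were designed on the same sequence record, so they are not independent measures, and the s in a probe set's name marks probes that can match transcripts of more than 1 gene. The dimmest, 1426639_a_at, ranged from 4.20 to 5.52 in Pogz+/+ and from 1.88 to 4.28 in Pogz-/-, so the groups overlapped.

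The RefSeq windows used here run from 250 bases before to 50 bases after a start in GRCm38.p6, and Tcf7l2 has 2 of them, far apart. The pair is shown because Tcf7l2 held the lowest adjusted p of the members and because TCF factors can bind near genes of their own pathway. The motif searched was the core CTTTGA or CTTTGT on either strand (TCAAAG or ACAAAG where it lies on the opposite strand), which 31.2% of 32851 windows of this length hold. Capitals mark it. The upstream window, chr19:55741560-55741859 on the plus strand, holds no match. The downstream window, chr19:55895071-55895370 on the plus strand, holds 1, which begins 14 bases before the start.
Tcf7l2 upstream start: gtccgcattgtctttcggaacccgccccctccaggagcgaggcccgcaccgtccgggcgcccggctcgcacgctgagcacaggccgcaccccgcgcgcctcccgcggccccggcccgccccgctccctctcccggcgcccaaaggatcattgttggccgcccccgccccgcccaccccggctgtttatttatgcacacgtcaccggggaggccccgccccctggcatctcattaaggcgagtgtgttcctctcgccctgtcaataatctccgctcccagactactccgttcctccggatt
Tcf7l2 downstream start: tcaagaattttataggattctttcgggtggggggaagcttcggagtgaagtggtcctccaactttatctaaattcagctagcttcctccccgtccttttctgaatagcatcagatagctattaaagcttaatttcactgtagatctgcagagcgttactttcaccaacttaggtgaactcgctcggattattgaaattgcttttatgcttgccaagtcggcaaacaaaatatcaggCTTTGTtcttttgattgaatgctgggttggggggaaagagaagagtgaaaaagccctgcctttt
Of 12 windows of 6 member genes, Tcf7 among them, 3 hold the motif. They are this downstream Tcf7l2 window, the Gsk3b window and the most downstream of 4 Lef1 windows. These matches are descriptions of the letters and not of bound sites. No window of Axin1, Apc, Lrp5 or Lrp6 is among the 12, and the chromosome of Apc was left out of the member windows.

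Ctnnb1 was higher in Pogz-/- FL on 2 of its 3 probe sets, of which 1 rose. The bright probe set 1420811_a_at, at the 98.1st percentile of signal, measured 11.09, 11.27 and 11.22 in Pogz+/+ and 11.48, 11.60 and 11.73 in Pogz-/-. The groups did not overlap, and the difference is small: 0.36 on the log2 scale without replicate 1 (SE 0.09, adjusted p = 0.0768) and 0.41 over 6 arrays (SE 0.23, adjusted p = 0.488). Quantile normalization (0.41, adjusted p = 0.0482) and median centring (0.63, adjusted p = 0.0051) of the 5 arrays each brought it past the threshold. The dimmer probe set 1450008_a_at, made on the same sequence record, measured 3.05, 6.89 and 5.70 in Pogz+/+ and 7.56, 7.62 and 7.75 in Pogz-/-. Its Pogz-/- arrays lay close together and its Pogz+/+ arrays were widely spread, with replicate 1 the lowest. It rose by 1.35 without that array (SE 0.30, adjusted p = 0.0378) and differed by 2.43 with it (SE 0.98, adjusted p = 0.426). The remaining probe set, 1430533_a_at, ranged from 5.61 to 6.55 in Pogz+/+ and from 6.19 to 6.30 in Pogz-/-, and its log2 fold change was 0.20 over 6 arrays (95% interval -0.59 to 0.98) and -0.02 without replicate 1.

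The Ctnnb1 window that begins farthest upstream, chr9:120933150-120933449 on the plus strand, is shown beside those of Tcf7l2 because these genes hold all the calls among the members and moved in opposite directions. Neither of the 2 Ctnnb1 windows holds the motif.
Ctnnb1: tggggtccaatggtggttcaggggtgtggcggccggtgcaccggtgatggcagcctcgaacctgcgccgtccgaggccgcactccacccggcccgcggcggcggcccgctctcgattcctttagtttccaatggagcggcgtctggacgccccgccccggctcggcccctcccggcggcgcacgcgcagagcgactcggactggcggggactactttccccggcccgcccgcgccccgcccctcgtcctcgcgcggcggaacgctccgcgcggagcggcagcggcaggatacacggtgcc

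Lef1, the TCF-family factor of lymphoid progenitors, was dim. Its probe set 1454734_at measured 5.53, 5.37 and 4.64 in Pogz+/+ and 4.33, 3.34 and 3.93 in Pogz-/-. The groups did not overlap, but the values straddle the median of all probe sets and the difference was not called (-1.31 over 6 arrays, SE 0.40, adjusted p = 0.388; -1.14 without replicate 1, adjusted p = 0.432). The other, 1421299_a_at, ranged from 2.54 to 5.20 in Pogz+/+ and from 3.64 to 4.89 in Pogz-/-, with a log2 fold change of 0.03 over 6 arrays and -0.72 without replicate 1. Of 9 marker genes of T and natural killer cells, in which Lef1 is also known to be expressed, 7 had a negative log2 fold change over 6 arrays, 3 were lower with no overlap between genotypes (16.3% of all genes were) and 1 (Zap70) fell (2.07% of all genes did). Of 7 B cell genes, 6 had a negative log2 fold change, 3 (Cd79b, Ebf1 and Igll1) were lower with no overlap and none fell. Their mean signal ranged from 4.83 to 6.43 in Pogz+/+ and from 4.66 to 4.99 in Pogz-/-, and Ebf1, the early B-lineage factor, had the most negative value (-1.91 over 6 arrays, 0.129 as adjusted p without replicate 1 in limma). The part of either list in the Lef1 values was not tested. Of the defining T cell markers, Cd3e averaged 4.21 in Pogz+/+ and 4.10 in Pogz-/-, Cd3g 4.53 and 3.17, and Cd3d 1.38 and 1.97, all below the median of all probe sets.

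**Figure D2:**
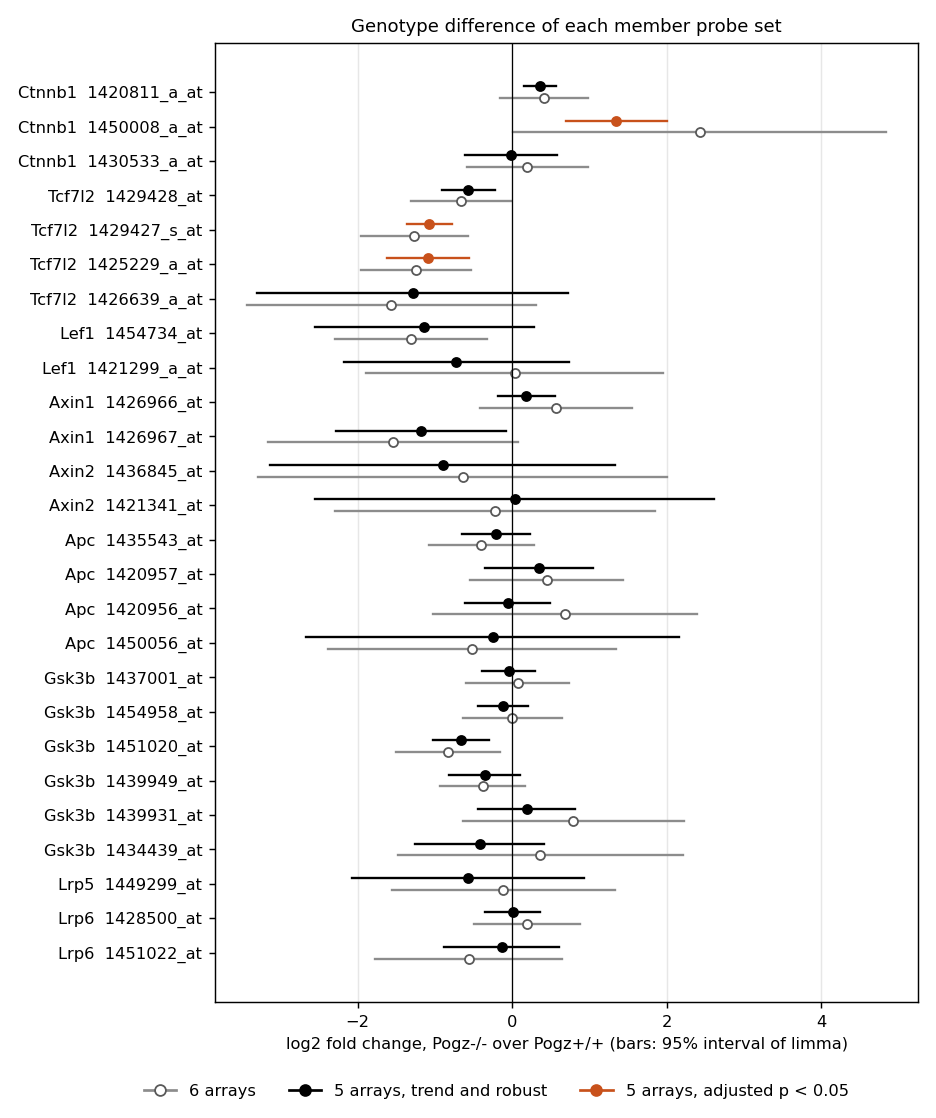
Log2 fold change of each member probe set (Pogz-/- over Pogz+/+) with the 95% interval of limma; gray with open circles over 6 arrays, black without Pogz+/+ replicate 1 and with trend and robust, and orange where the latter was called. The 3 orange points are 1 Ctnnb1 probe set at 1.35 and 2 Tcf7l2 probe sets at -1.07 and -1.09. Intervals of the other bright probe sets are mostly narrower than those of dim ones.

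Gsk3b, the kinase of the destruction complex, gave no common direction over 6 arrays, with 4 positive and 2 negative log2 fold changes, but 5 of 6 were negative without replicate 1 and none was called. Its brightest probe sets, 1437001_at and 1454958_at, had log2 fold changes of 0.07 (95% interval -0.59 to 0.73) and 0.00 (-0.64 to 0.65) over 6 arrays and of -0.05 and -0.12 without replicate 1. The first ranged from 8.44 to 8.90 in Pogz+/+ and from 8.55 to 8.99 in Pogz-/-, and the second was 8.35 to 8.80 and 8.39 to 8.74. In both, the groups overlapped almost completely. In contrast, 1451020_at measured 8.80, 8.24 and 8.36 in Pogz+/+ and 7.80, 7.65 and 7.46 in Pogz-/-, with no overlap. It was not called (-0.83 over 6 arrays, SE 0.27, adjusted p = 0.393; -0.66 without replicate 1, SE 0.16, adjusted p = 0.0599). The probe set 1439949_at also did not overlap, at 6.86 to 7.04 and 6.56 to 6.62, a log2 fold change of -0.38 over 6 arrays. The dimmest sets, 1439931_at and 1434439_at, had replicate 1 as their lowest array, at 4.18 and 3.53, and log2 fold changes of 0.79 and 0.37 with it and of 0.19 and -0.42 without it.

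The scaffolds of the destruction complex were not called on any probe set. Axin1, the limiting scaffold of the complex, had a brighter probe set, 1426966_at, at 6.56, 7.82 and 7.59 in Pogz+/+ and 8.01, 7.73 and 7.94 in Pogz-/-, and a dimmer one, 1426967_at, at 7.87, 7.03 and 6.54 against 4.39, 6.46 and 5.94. The first was higher on average in Pogz-/- (0.57 over 6 arrays, 0.19 without replicate 1) and the second lower (-1.55 and -1.18), although they were designed on the same sequence record. Pogz+/+ replicate 1 was the lowest array on the first and the highest on the second.

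Axin2, the scaffold that β-catenin itself induces and a common readout of the pathway, was dim. Its probe set 1436845_at ranged from 3.88 to 5.82 in Pogz+/+ and from 1.79 to 5.19 in Pogz-/-, and 1421341_at from 2.46 to 3.36 and from 0.98 to 4.18. The groups overlapped, and the 95% intervals over 6 arrays, -3.29 to 2.01 and -2.29 to 1.85, hold large changes in either direction. Apc, the tumor suppressor scaffold, had 3 probe sets of middle signal. The brightest, 1435543_at, ranged from 6.94 to 7.58 in Pogz+/+ and from 6.71 to 6.89 in Pogz-/-, with no overlap but a small difference (-0.40 over 6 arrays, -0.21 without replicate 1, adjusted p = 0.662). The next, 1420957_at and 1420956_at, had log2 fold changes of 0.45 and 0.69 over 6 arrays and 0.35 and -0.06 without replicate 1, which alone was at 4.73 on the latter. The last, 1450056_at, was dim at 0.74 to 3.16.

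The co-receptors did not differ beyond the spread of the arrays. For Lrp6, which ligand binding clusters with Frizzled, 1428500_at was 7.16, 7.72 and 7.75 in Pogz+/+ and 7.62, 7.73 and 7.88 in Pogz-/-, a log2 fold change of 0.20 over 6 arrays (95% interval -0.49 to 0.89) and 0.01 without replicate 1. Its dimmer probe set, 1451022_at, was 5.82 to 7.27 and 5.36 to 6.33, and again replicate 1 was the extreme. Lrp5, known for its role in bone mass, had 1 dim probe set, 1449299_at, at 3.23, 5.10 and 4.13 in Pogz+/+ and 4.51, 3.36 and 4.25 in Pogz-/-.

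Across the 26 probe sets, 8 had all Pogz-/- arrays below all Pogz+/+ arrays, against 15.8% of all probe sets, and 2 had them all above, against 9.1%. In such a design of 3 against 3 arrays the exact permutation test of a single probe set cannot go below a two-sided p of 0.1, which 10 of the 26 reached. The 8 lower sets come from 5 genes and include 3 of Tcf7l2 and 2 of Gsk3b, so they are not independent. The median log2 fold change of all 26 was -0.17 over 6 arrays and -0.23 without replicate 1, where that of all probe sets was -0.23 and -0.13. Probe sets of the same gene often moved apart: 5 of the 8 genes with more than 1 probe set had both signs over 6 arrays. On 9 of the 26, replicate 1 was more than 1 log2 unit from the mean of the other Pogz+/+ arrays. The 3′ to 5′ ratios were also higher in Pogz+/+ than in Pogz-/- without that array (Gapdh control 7.37 and 9.29 against 4.87 to 5.08). These ratios thus went with genotype. Their part in the rises and falls named in the text, and in the differences between probe sets of a gene, was not tested.

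Beyond the members, 84 of 85 listed genes of the Wnt pathway were measured. This list and the list of targets were set with earlier results of these data known. Over 6 arrays limma called 0 of the 84 genes, against 0% of all genes, where 2389 of all genes had an unadjusted p under 0.05. Without replicate 1, with trend and robust, 3 rose, against 2.41% of all genes, and 3 fell, against 2.07%. The median log2 fold change of the list was -0.43 over 6 arrays and -0.41 without replicate 1, and that of all genes -0.17 and -0.10. Of the 84, 40 were below the median signal of the array, where all genes together had a median of -0.60 over 6 arrays, against -0.03 for brighter genes. The 40 dim pathway genes had a median of -0.98 and the 44 brighter ones of -0.19. Both were below the median of all genes on the same side of the median signal. Without replicate 1 the pathway medians were -0.62 and -0.23, against -0.39 and -0.03 for all genes. Genes on the same side still differ in signal, and the part of this in the medians was not tested. All Pogz-/- arrays were below all Pogz+/+ arrays for 22 of the 84, against 16.3% of all genes, and above for 3, against 10.8%.

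**Figure D3:**
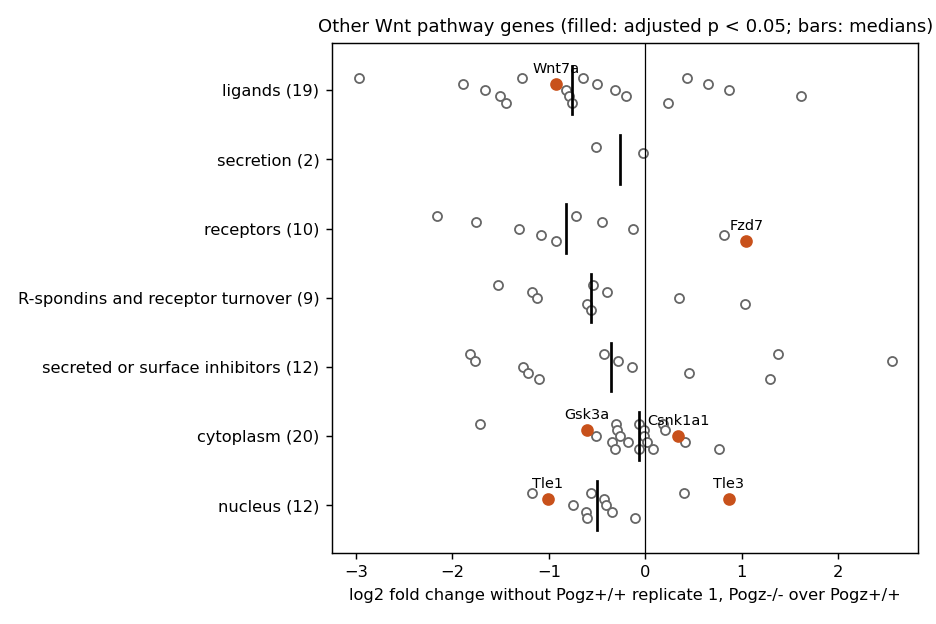
Log2 fold change (Pogz-/- over Pogz+/+, without Pogz+/+ replicate 1) of 84 other Wnt pathway genes by role, with the number of genes in parentheses; vertical bars are medians and filled points were called. The 6 filled points are Wnt7a, Gsk3a and Tle1 on the left and Fzd7, Csnk1a1 and Tle3 on the right. Ligands and receptors spread more widely than cytoplasmic components.

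Among the nuclear components, the Groucho co-repressors Tle1 and Tle3, which TCF factors recruit in the absence of β-catenin, moved in opposite directions. Tle1 was 8.34, 8.01 and 7.84 in Pogz+/+ and 6.99, 6.98 and 6.77 in Pogz-/-. The groups lay well apart, and Tle1 fell by 1.01 (log2 scale, SE 0.18, adjusted p = 0.0103, limma with trend and robust, 5 arrays). Tle3 was 7.94, 7.97 and 7.50 in Pogz+/+ and 8.65, 8.47 and 8.68 in Pogz-/-, and it rose by 0.87 (SE 0.17, adjusted p = 0.0147). Both directions and calls held after quantile normalization (adjusted p = 0.0120 and 0.0242) and median centring (0.0233 and 0.00137) of the 5 arrays. Over 6 arrays the log2 fold changes were -1.15 and 0.80 (adjusted p = 0.306 and 0.330). Among dimmer probe sets, 1458512_at of Tle3 measured 4.50, 2.56 and 3.50 in Pogz+/+ and 5.44, 6.05 and 6.20 in Pogz-/-, with no overlap, and rose by 2.86 (SE 0.53; limma over probe sets, adjusted p = 0.0175). The other 2 of Tle3 and the other of Tle1 overlapped and were not called, with log2 fold changes of -0.14, -0.63 and -0.33 without replicate 1. Tle4, the gene of the nuclear list with the brightest probe set, was 7.61 to 8.55 and 8.51 to 8.84, with overlap; it was not called without replicate 1 (log2 fold change 0.40, adjusted p = 0.262) but passed with median centring of the 5 arrays (adjusted p = 0.0321). Of the 12 nuclear genes, 1 rose and 1 fell, where 2.41% of all genes rose and 2.07% fell.

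Among 20 cytoplasmic genes, 1 rose and 1 fell, against the same 2.41% and 2.07% of all genes. Gsk3a, the paralog that acts beside Gsk3b, was 10.90, 10.13 and 10.29 in Pogz+/+ and 9.63, 9.55 and 9.63 in Pogz-/-, and it fell by 0.61 (SE 0.10, adjusted p = 0.00866), a call that median centring ended (-0.33, adjusted p = 0.113). Csnk1a1, the casein kinase that primes β-catenin for GSK3, was 11.61 and 11.53 in Pogz+/+ replicates 2 and 3 and 11.88 to 11.93 in Pogz-/-, and it rose by 0.34 (SE 0.08, adjusted p = 0.0327). Pogz+/+ replicate 1 was above all Pogz-/- arrays at 12.08, so the difference over 6 arrays was 0.17 (adjusted p = 0.729). Of its 4 dimmer probe sets, 1428537_at rose by 0.62 (adjusted p = 0.00893 over probe sets) and the dimmest, 1451497_at, fell by 2.09 (adjusted p = 0.0344). Fbxw11, a subunit of the ubiquitin ligase for β-catenin and among the brightest of the list, was 11.25 to 11.67 and 10.98 to 11.30, with adjusted p = 0.416 without replicate 1 in the limma fit.

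Of 19 ligands, 1 fell, against 2.07% of all genes, and none rose. Wnt7a, the brightest of them, was 7.97, 7.71 and 7.32 in Pogz+/+ and 6.44, 6.74 and 6.58 in Pogz-/-, and fell by 0.93 (SE 0.21, adjusted p = 0.0322), a call that median centring ended (-0.65, adjusted p = 0.0718). The other Wnt7a probe sets, 1423367_at and 1458334_at, were dim, overlapped and had no call. Their log2 fold changes without replicate 1 were 0.69 and -1.69. Wnt7b, the next brightest ligand, was 6.07 to 7.40 and 5.38 to 6.25, and its groups overlapped. Of 10 Frizzled receptors, 1 rose, against 2.41% of all genes. Fzd7 was 5.90 and 5.63 in Pogz+/+ replicates 2 and 3 and 6.92, 6.96 and 6.56 in Pogz-/-, and rose by 1.05 (SE 0.25, adjusted p = 0.0391 over genes, 0.0523 over probe sets). Replicate 1, at 6.93, was as high as Pogz-/-, and the difference over 6 arrays was 0.66 (adjusted p = 0.459). The other Fzd7 probe set, 1450043_at, was dim, overlapped and was not called (log2 fold change -0.65 without replicate 1). The brightest receptor, Fzd5, was 7.13 to 8.19 and 7.82 to 8.12. Wls and Porcn, which act in ligand secretion, the 9 genes of R-spondins and receptor turnover and the 12 inhibitors had no call. Of these, the brightest were Wls at 5.31 to 5.76 in Pogz+/+ and 4.77 to 5.71 in Pogz-/-, Porcn at 0.47 to 6.34 and 1.37 to 2.07, Lgr4 at 6.38 to 7.51 and 6.66 to 6.98, Znrf3 at 5.94 to 6.72 and 6.40 to 7.02, Sfrp4 at 5.95 to 7.02 and 6.80 to 7.05, and Notum at 5.74 to 6.96 and 4.09 to 5.30. Only Notum had groups that did not overlap among these.

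Textbook targets of β-catenin and TCF showed no common direction. Of 18 measured, several of which are also members or pathway genes, limma called 0 over 6 arrays, and without replicate 1, with trend and robust, 2 rose, against 2.41% of all genes, and none fell, against 2.07%. The median log2 fold change was -0.23 over 6 arrays, where that of all genes was -0.17, with 8 positive and 10 negative. All Pogz-/- arrays were above all Pogz+/+ arrays for 2 of the 18 (10.8% of all genes) and below for 4 (16.3%). Myc, the growth regulator, was 7.15, 8.68 and 8.42 in Pogz+/+ and 9.39, 9.12 and 9.05 in Pogz-/-, and rose by 0.64 (SE 0.14, adjusted p = 0.0281). Oat, the ornithine aminotransferase of pericentral hepatocytes, was 8.24, 8.87 and 8.82 and then 9.65, 9.32 and 9.28, and rose by 0.57 (SE 0.13, adjusted p = 0.0344 over genes, 0.0528 over probe sets). Both calls were lost after quantile normalization (adjusted p = 0.0563 and 0.0699). Glul, the glutamine synthetase of the same hepatocytes, ranged from 9.80 to 9.89 in Pogz+/+ and from 9.68 to 9.90 in Pogz-/-. Ccnd1, the G1 cyclin, was 7.89 to 8.12 and 7.74 to 8.40. Feedback inhibitors among the targets had log2 fold changes of both signs and no call. Znrf3 and Rnf43, ligases that remove Frizzled receptors, had log2 fold changes of 0.41 and 0.54 over 6 arrays, with overlap and no call, and Dkk1, which binds LRP co-receptors, overlapped at -2.33. Nkd1 and Notum were lower with no overlap (log2 fold changes of -1.97 and -1.48 over 6 arrays) and not called (adjusted p = 0.270 and 0.233 without replicate 1, limma). The hepatoblast list had 1 of 6 genes fall (Afp), against 2.07% of all genes, and overlapped between genotypes on average. Which cells of this mixture gave the Oat and Glul signal was not tested.

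**Figure D4:**
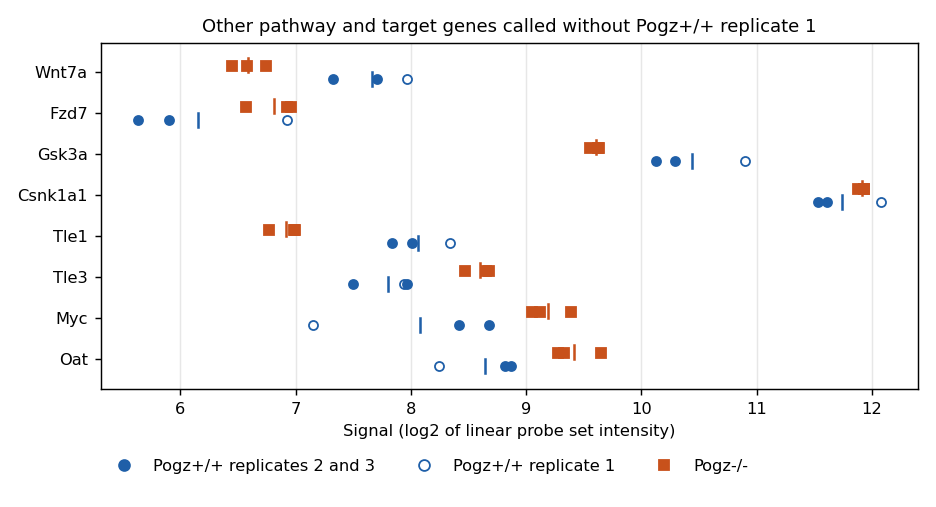
Log2 signal in each array of the 8 pathway and target genes called without Pogz+/+ replicate 1; circles are Pogz+/+ (open for replicate 1), squares are Pogz-/- and vertical bars are means of 3 arrays. Replicate 1 lies among or beyond the Pogz-/- arrays for Fzd7 and Csnk1a1 and farther from them than the other Pogz+/+ arrays for Wnt7a, Gsk3a, Tle1, Myc and Oat.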

How the data were processed

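RNA of 6 E14.5 livers (about 100 ng each) was labelled by 3′ IVT and hybridized to 1 array each. The authors' deposited values are linear intensities from Affymetrix Expression Console (version and algorithm: not given in the sources used here) with a 2% trimmed mean of 150 in each array. Log2 was taken with no pseudocount and the 64 controls were left out. Of the remaining 45037 probe sets, 34945 name 1 gene in the platform annotation, 932 name several and 9160 are unnamed here. Symbols were updated through Entrez identifiers.

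Genotypes and replicate numbers came from the sample titles. The number of arrays limits the precision. The model, fitted in limma 3.58.1 (R 4.3.3) with lmFit and eBayes, had genotype as its sole term. Tests were two-sided, with p adjusted by Benjamini-Hochberg over 45037 probe sets or 18193 genes. Where the text names it, limma's trend and robust settings were used without Pogz+/+ replicate 1. The methods' t-test, other scalings, a replicate block, a Y-linked covariate, a filter on dim probe sets and a different probe set for each gene were alternatives. The members, lists and alternatives were chosen with earlier results of these data known. Named genes are all member probe sets, other pathway genes and targets called in either fit, and the 2 brightest of each role in the list; Ccnd1, Nkd1, Rnf43 and Dkk1 were chosen after their values were seen. Calculations were tested on simulated data. Same-numbered arrays of the genotypes did not deviate together (r from -0.00503 to 0.00784), and neither did arrays of different numbers (-0.0149 to 0.0199). With so few arrays, and Pogz+/+ replicate 1 set apart, these values cannot exclude a shared litter or batch. The labels state no pairing, and the main model used none.

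Signals of different probe sets are not on a common scale, and bright or dim refers to the probe set and not to the level of the gene. Marker lists were averaged over the brightest probe set of each gene. Promoter windows came from RefSeq (GRCm38.p6).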

Additional observations from a re-analysis of the deposited data

How the results depend on the processing

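Without Pogz+/+ replicate 1 and with trend and robust, 3 member probe sets, 6 pathway genes and 2 target genes were called, where all 6 arrays gave 0 of each. Counted by the brightest probe set of each gene, as the lists are, 0 member genes were called in that fit. With quantile normalization of the 5 arrays the counts were 4 probe sets, 2 member genes and 6 pathway genes, and with median centring 3, 1 and 7, with 2 targets. Of all 18193 genes, the fit with quantile normalization called 377 higher and 302 lower, and that with median centring 1844 higher and 100 lower. Leaving out replicate 1 with plain limma gave 0 member probe sets, member genes, pathway genes and targets. Trend and robust over all 6 arrays also gave 0 of these, so the calls came only with both together. Why they did was not tested. The labels do not state that replicate numbers pair the arrays, and with replicate as a block limma called 0 member probe sets. The methods' t-test, the unpaired test of the paper's general statistics, gave 0 member probe sets after adjustment. Of all probe sets it called 1 higher and 1 lower. For its arrays the paper used other software with a fold-change cutoff, which was not repeated here. Of 409 alternative values over 16 settings, 348 kept direction and side of the threshold and 51, from 14 probe sets, reversed in sign. None of the 14 was called in any fit, and 12 probe sets, all 4 of Tcf7l2 and the 2 brightest of Ctnnb1 among them, never reversed.

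The reversed log2 fold changes were as follows. Without replicate 1 and with trend and robust, they were -0.016 for Ctnnb1 1430533_a_at, -0.72 for Lef1 1421299_a_at, 0.034 for Axin2 1421341_at, -0.059 for Apc 1420956_at, and -0.045, -0.12 and -0.42 for Gsk3b 1437001_at, 1454958_at and 1434439_at. With quantile normalization of these 5 arrays, they were -0.40 for that Lef1 probe set, 0.35 for Axin2, -0.057 for Apc 1420956_at, 0.14 for Apc 1450056_at, -0.12, -0.19 and -0.24 for the 3 Gsk3b probe sets, and -0.046 and 0.018 for Lrp6 1428500_at and 1451022_at. With median centring of the 5, they were -0.45 for Lef1, 0.31 for Axin2, 0.062 for Apc 1435543_at, 0.022 for Apc 1450056_at, -0.15 for Gsk3b 1434439_at and 0.14 for Lrp6 1451022_at. Over 6 arrays, quantile normalization gave 0.23 for Axin2 1421341_at, 0.018 for Apc 1450056_at, -0.049 and -0.11 for Gsk3b 1437001_at and 1454958_at, and 0.32 for Lrp5 1449299_at. Median centring gave 0.24 for Axin2, 0.062 for Apc 1435543_at, 0.082 for Gsk3b 1439949_at and 0.35 for Lrp5. A Y-linked covariate gave -0.22 for Lef1 1421299_a_at, 0.35 for Axin2 1421341_at, 0.21 for Apc 1450056_at, -0.075 for Gsk3b 1454958_at and 0.074 for Lrp5.

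When each array was left out in turn with plain limma, 0 member probe sets, member genes, pathway genes or targets were called each time. The log2 fold changes of 9 probe sets then reversed at least once, with ranges of -0.016 to 0.45 for Ctnnb1 1430533_a_at, -0.72 to 0.61 for Lef1 1421299_a_at, -1.26 to 0.44 for Axin2 1436845_at, -0.998 to 0.60 for Axin2 1421341_at, -0.059 to 1.12 for Apc 1420956_at, -0.056 to 0.19 for Gsk3b 1437001_at, -0.12 to 0.11 for Gsk3b 1454958_at, -0.42 to 0.99 for Gsk3b 1434439_at and -0.58 to 0.36 for Lrp5 1449299_at.

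With 3 arrays of a genotype, 1 of them set apart, small differences of dim probe sets could not be measured: 7 of the 26 lay below the median signal.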
